A study of Mus musculus with 19 samples.

Results

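Ferroptosis is an iron-dependent form of cell death driven by the peroxidation of membrane lipids, and 10 genes that supply its defence, its lipid substrates or its iron were followed here across the mouse arrays of this study. The genes were Slc7a11, Slc3a2, Hmox1, Tfrc, Fth1, Nqo1, Aifm2, Acsl4, Lpcat3 and Alox15. They were taken by name, whatever their signal, out of 27793 gene names on the array, and 17 probes carried one of these names. Slc7a11 had 4 probes, Slc3a2, Hmox1, Acsl4 and Aifm2 had 2 each, and the other genes had 1 each.

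RNA from 4 groups of samples was hybridised to 19 arrays, each a 1-colour Agilent array of the whole mouse genome. The C2C12 cells, a line of mouse myoblasts, were stably transfected. The HDAC4&5 group (6 arrays) carried pIRES neo3 with human HDAC4 and pIRES hyg3 with human HDAC5, the WT group (6 arrays) carried the empty plasmids, and all cells grew under 500 µg/mL each of Hygromycin B and Geneticin until harvest 48 h after seeding. How many clones make up each stable line is not given in the sources used here. The soleus, a slow muscle, came from male C57BL6J mice of 12 weeks fasted for 5 h, either db +/+ (db, 4 mice, the obese db/db genotype) or their heterozygous littermates db -/+ (Con, 3 mice), so that the controls also carry 1 copy of the db allele. The study asks how class IIa histone deacetylases, the family of HDAC4 and HDAC5, bear on cell death under lipid overload, ferroptosis included, and the comparisons here ask which of these transcripts differ with HDAC4 and HDAC5 in cells and with the db genotype in muscle.

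The pathway has a few well known steps. SLC7A11 and SLC3A2 together form system xc-, which brings cystine into the cell for glutathione, the cofactor with which GPX4 removes lipid peroxides. AIFM2 (FSP1) and NQO1 reduce quinones, and reduced coenzyme Q traps lipid radicals independently of glutathione. ACSL4 and LPCAT3 place polyunsaturated fatty acids in phospholipids, where ALOX15 can oxidise them. TFRC imports transferrin-bound iron, FTH1 stores iron, and HMOX1 breaks down haem and frees its iron.

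The array coordinates refer to mm9, and the promoter letters below to GRCm38.p6 as listed by RefSeq. The stretch before the Slc7a11 start is shown for 2 reasons. Of the 10 genes, Slc7a11 had the largest fitted difference in cells, taken against background signal in WT. The stretch also holds 2 matches of TGATGNAA, the letters of a C/EBP-ATF response element, 1 on each strand. They lie 66 and 47 bases before the start. With normexp background correction, described below, the difference was 1.46 for Slc7a11 and 1.67 for Hmox1 (log2). The stretch before Asns, which encodes asparagine synthetase and is a textbook ATF4 target, is shown for comparison with its match 23 bases before the start. Asns, named outside the rule for list genes, rose by 0.96 ± 0.07 (log2 ± SE) in HDAC4&5 cells, where 36.4% of all genes tested rose. Capitals mark the matches.
Slc7a11 (chr3:50443614-50443863, minus strand): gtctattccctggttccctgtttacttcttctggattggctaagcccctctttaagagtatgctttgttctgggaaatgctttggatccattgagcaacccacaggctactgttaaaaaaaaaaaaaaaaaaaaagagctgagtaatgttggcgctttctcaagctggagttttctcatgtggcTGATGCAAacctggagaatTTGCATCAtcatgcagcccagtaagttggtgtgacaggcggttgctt
Asns (chr6:7693210-7693309, minus strand): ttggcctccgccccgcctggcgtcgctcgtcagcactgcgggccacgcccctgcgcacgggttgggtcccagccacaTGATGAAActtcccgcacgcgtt
Both strands of 32851 promoter windows of 300 bases (250 before and 50 after the start) were searched, and 3.97% held TGATGNAA. Of the 10 genes, 8 had at least 1 window and Slc7a11 alone among them held it. The core letters of the antioxidant response element, TGACNNNGC, stood in 12.4% of all windows and in none of the windows of these 8 genes. Hmox1 and Alox15 were not matched in the promoter table. A match is a run of letters and was not tested as a binding site. Letters outside the windows were not searched, so a window without a match does not show that the gene lacks the element.

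Signal was high enough to measure most of these genes, and the limits lie at both ends of the scale. Array brightness, taken as the upper quartile (75th percentile) of processed intensity, ranged from 494 to 1691 in C2C12 cells, from 153 to 232 on soleus slide 1 and from 555 to 686 on soleus slide 2. Levels are given as log2 intensity minus that percentile of the same array, so that 0 is the percentile and each unit is a factor of 2. They are not compared between probes. Of the 9 myoblast markers, 7 were well above background on every WT array and 7 of 7 tested fell in HDAC4&5 cells. Myod1, the defining myogenic factor, averaged 2.70 ± 0.13 (SD, n = 6) in WT cells and was not well above background on any HDAC4&5 array, while 4 of the 9 markers, Ncam1, Itga7, Cdh15 and Des, were above it on all 6. Pax7 and Myf5 gave only background signal in WT and HDAC4&5 cells. All 9 slow muscle markers were well above background on every soleus array. Of 11 macrophage markers, 4 were well above background on every HDAC4&5 array and 2 on every WT array, while Csf1r, Cd163, Ptprc and Itgam were on none of either group. The mouse Hdac5 probe read 2.19 ± 0.38 in WT and 3.60 ± 0.62 in HDAC4&5 cells, and that of Hdac4 0.28 ± 0.06 and 0.23 ± 0.06 (SD, n = 6 each). Whether these mouse probes bind the human transgenes was not tested.

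**Figure D1:**
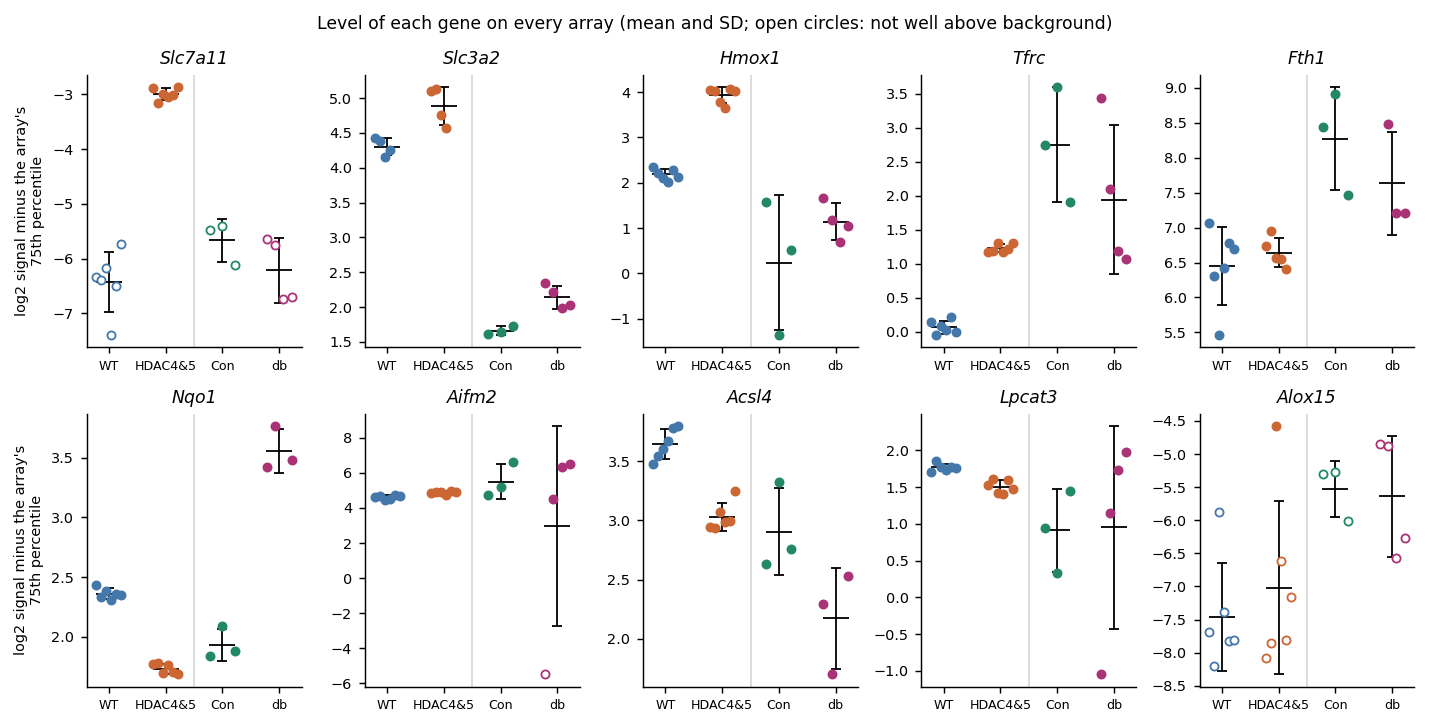
Level of the probe used for each of the 10 genes on every array (log2 signal minus the 75th percentile of the array, 1 circle per array, bar and whiskers the mean and SD), in C2C12 WT and HDAC4&5 cells and Con and db soleus. Open circles are not well above background: Slc7a11 is filled in HDAC4&5 cells alone, where its 6 arrays lie between -3.15 and -2.87, and Alox15 on 1 of 19 arrays.

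In C2C12 cells, the RNA of both subunits of the cystine transporter read higher in HDAC4&5 than in WT cells. The call of Slc3a2 was lost under some of the alternatives given below. Slc7a11 went from below background to a measurable level, at least 6.51-fold higher by a limit set from the dimmest probe well above background on each array. With normexp background correction its difference was 1.46 (log2). Hmox1 rose 3.37-fold, Tfrc 2.24-fold and Slc3a2 1.50-fold, while Acsl4 fell to 0.652 and Nqo1 to 0.647 of the WT level. Of the 10 genes, 9 passed the filter on dim probes, 5 were higher and 3 lower (limma, adjusted p below 0.05), and Fth1 was not called. Slc7a11 is among the 5 although it passed the filter only through HDAC4&5 cells. With both groups required to be well above background, 8 genes were tested, of which 4 rose and 3 fell. These cells differed over much of the transcriptome: 69.2% of the 14135 genes tested were called, 36.4% as higher and 32.8% as lower, against 88.9% of the 9 genes here. The median difference of the 9 was 0.26 (log2) and that of all genes 0.05.

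Slc7a11, the light chain that carries cystine, lay between -7.39 and -5.72 (median -6.36) on the 6 WT arrays and between -3.15 and -2.87 (median -3.00) on the 6 HDAC4&5 arrays with its brightest probe, at chromosome 3, 50169700 to 50169759. The groups did not overlap, and none of the WT arrays was well above background while all 6 HDAC4&5 arrays were. In intensity the medians were 9.63 and 94.7 units. The fitted difference was 3.43 ± 0.21 (log2 ± SE, adjusted p = 7.37e-09, limma). Because the WT side is background, the fold is only bounded, as at least 6.51. This bound is not strict. On WT array 6 the probe read -5.72 without being well above background, while the dimmest probe well above background there lay at -5.82. With normexp background correction, which lifts the dim side by an offset, the difference was 1.46 (adjusted p = 0.000103, limma), below that bound. Slc7a11 passed the filter only through the group in which it was high, so its p-values set signal against background and are not taken as support.

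The other Slc7a11 probes are numbered by brightness. Probe 2, at chromosome 3, 50170338 to 50170397, averaged -7.14 ± 0.66 in WT and -4.31 ± 0.30 in HDAC4&5 cells (SD, n = 6 each), was well above background on 5 of 6 HDAC4&5 arrays, and gave at least 2.64-fold. Probe 3 was higher in HDAC4&5 cells (-6.19 ± 0.31 against -7.71 ± 0.23) without reaching the background limit on any array. Probe 4 read -7.89 ± 0.26 and -7.23 ± 1.17, and its groups overlapped (exact permutation test, two-sided p = 0.195). Thus 2 of 4 probes reached a measurable level in HDAC4&5 cells and separated the groups. Probe 3 also separated them, but only in readings at background.

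Slc3a2, the heavy chain that holds SLC7A11 at the membrane, read 4.42, 4.38, 4.16 and 4.25 on WT arrays 1 to 4 and 5.10, 5.13, 4.76 and 4.57 on HDAC4&5 arrays 1 to 4. All 4 spots of slide 3 had been marked as outliers and were left out. The difference was 0.58 ± 0.14 (adjusted p = 0.00436, limma). With those spots kept the arrays of slide 3 read 4.34 and 4.33 in WT and 4.99 and 5.02 in HDAC4&5 cells. The second probe, measured on all 12 arrays, gave 0.56 ± 0.11 (adjusted p = 0.000411 over all probes), although its groups overlapped.

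**Figure D2:**
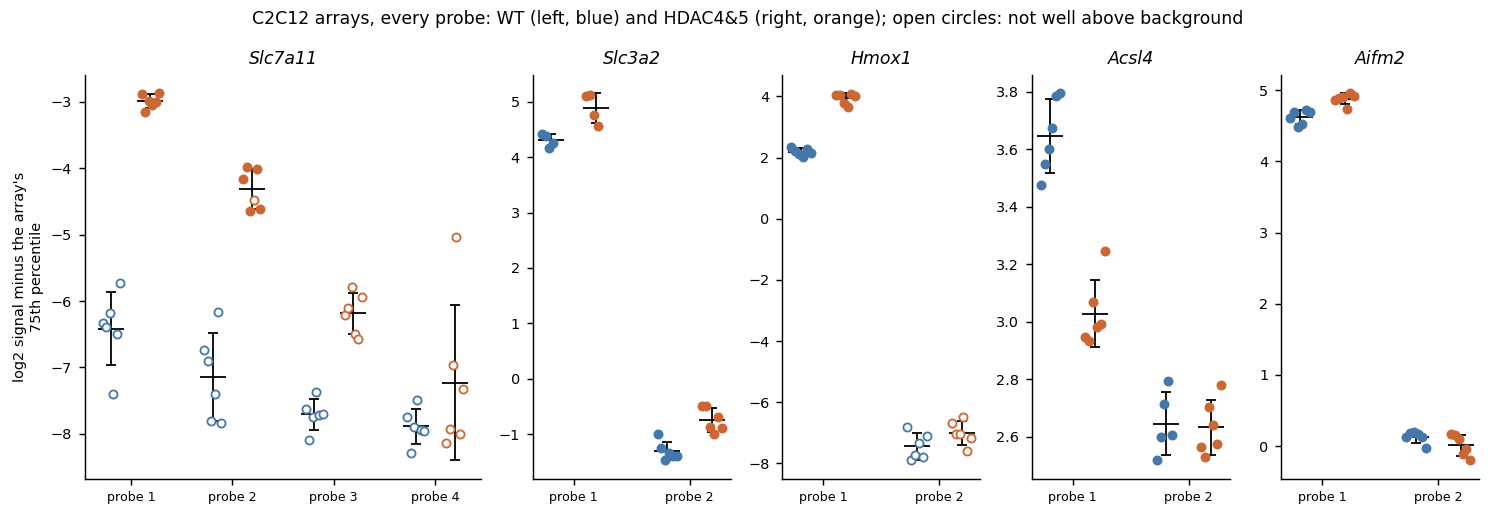
Every probe of the 5 genes with more than 1 probe, on the 12 C2C12 arrays (log2 signal minus the 75th percentile of the array; blue WT, orange HDAC4&5; bar and whiskers the mean and SD; open circles not well above background). Probes 1 and 2 of Slc7a11 and of Slc3a2 are higher in HDAC4&5 cells, whereas probe 2 of Acsl4 has close means in both groups (2.65 and 2.63) and probe 2 of Aifm2 does not follow probe 1.

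Hmox1, which opens the haem ring and releases iron, lay between 2.03 and 2.34 (median 2.18) in WT and between 3.64 and 4.08 (median 4.03) in HDAC4&5 cells. The difference was 1.75 ± 0.08 (adjusted p = 6.62e-10, limma). On the 3 slides it was 1.77, 1.65 and 1.85. The second Hmox1 probe was not well above background on any of the 19 arrays and gives no fold.

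Tfrc, the transferrin receptor, lay between -0.05 and 0.22 (median 0.05) in WT and between 1.18 and 1.31 (median 1.21) in HDAC4&5 cells, the mean of 10 spots per array. It rose by 1.16 ± 0.05 (adjusted p = 4.13e-10, limma), with 1.14, 1.19 and 1.16 on the 3 slides. Fth1, the ferritin heavy chain, was saturated on all 19 arrays, so no direction can be read for it in any comparison. Its intensity was 72194 to 78304 in WT and 71515 to 79646 in HDAC4&5 cells, at the upper end of the scanner in both.

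Of the 2 quinone reductases, Nqo1 alone kept its call under every alternative. Nqo1, a cytosolic enzyme, lay between 2.31 and 2.44 (median 2.35) in WT and between 1.68 and 1.78 (median 1.73) in HDAC4&5 cells, and fell by 0.63 on the log2 scale (SE 0.04, adjusted p = 1.16e-08, limma). Aifm2, which reduces coenzyme Q at membranes, lay between 4.48 and 4.72 (median 4.65) in WT and between 4.74 and 4.96 (median 4.90) in HDAC4&5 cells with its brighter probe, a 1.20-fold rise (0.26 ± 0.06, adjusted p = 0.00122, limma). Its second probe read 0.13 ± 0.08 in WT and 0.01 ± 0.15 in HDAC4&5 cells (SD, n = 6 each; difference -0.12, SE 0.07, adjusted p = 0.159). The Aifm2 rise therefore rests on 1 of 2 probes. It was not called with the mean of both probes (0.07, adjusted p = 0.221), with normexp background correction (0.15, adjusted p = 0.329) or in the deposited matrix (0.08, adjusted p = 0.674).

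Among the lipid genes, Acsl4, which activates arachidonic acid, lay between 3.48 and 3.80 (median 3.64) in WT and between 2.93 and 3.25 (median 2.99) in HDAC4&5 cells with its brighter probe, and fell by 0.62 on the log2 scale (SE 0.07, adjusted p = 5.22e-06, limma). The second Acsl4 probe, at chromosome X, 138755198 to 138755257, gave a difference of -0.01 (SE 0.07, adjusted p = 0.874), so the fall rests on 1 of 2 probes, the brighter one lying at 138752602 to 138752661 of the same chromosome. Lpcat3, which re-esterifies phospholipids with polyunsaturated fatty acids, lay between 1.71 and 1.85 (median 1.77) in WT and between 1.40 and 1.61 (median 1.50) in HDAC4&5 cells, and fell by 0.26 on the log2 scale (SE 0.05, adjusted p = 0.000387, limma). Alox15, the lipoxygenase, was well above background on no WT array and on 1 of 6 HDAC4&5 arrays, so no fold is given.

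The 7 genes tested and measured on all 12 arrays, all of them called, did not overlap between WT and HDAC4&5 cells. This was the case for 54.5% of all genes so tested and measured. Their exact permutation p was 0.00216, the smallest that 6 against 6 arrays allow. For Slc7a11 the WT side is background signal. Slc3a2, with 4 against 4 arrays, also did not overlap. The groups of Fth1, the gene not called, did overlap, and it is outside this count because its spot on HDAC4&5 array 6 was left out as an outlier. Among the 8 genes well above background in both groups, which leaves out Slc7a11, 4 rose and 3 fell. Leaving out any replicate number left the count of called genes at 8. The labels list 6 arrays per group of cells without naming separate cultures, which is more than the replicates given in the methods, so some arrays may share a culture and the p-values measure the spread between arrays, which may be technical. With the arrays of a group on each slide averaged, 3 against 3, a fit added with these results in view, 4 genes rose and 3 fell (limma), and Slc3a2, measured on 2 of the slides, was not called (adjusted p = 0.0539). At 3 against 3 no exact permutation p can be under 0.1.

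**Figure D3:**
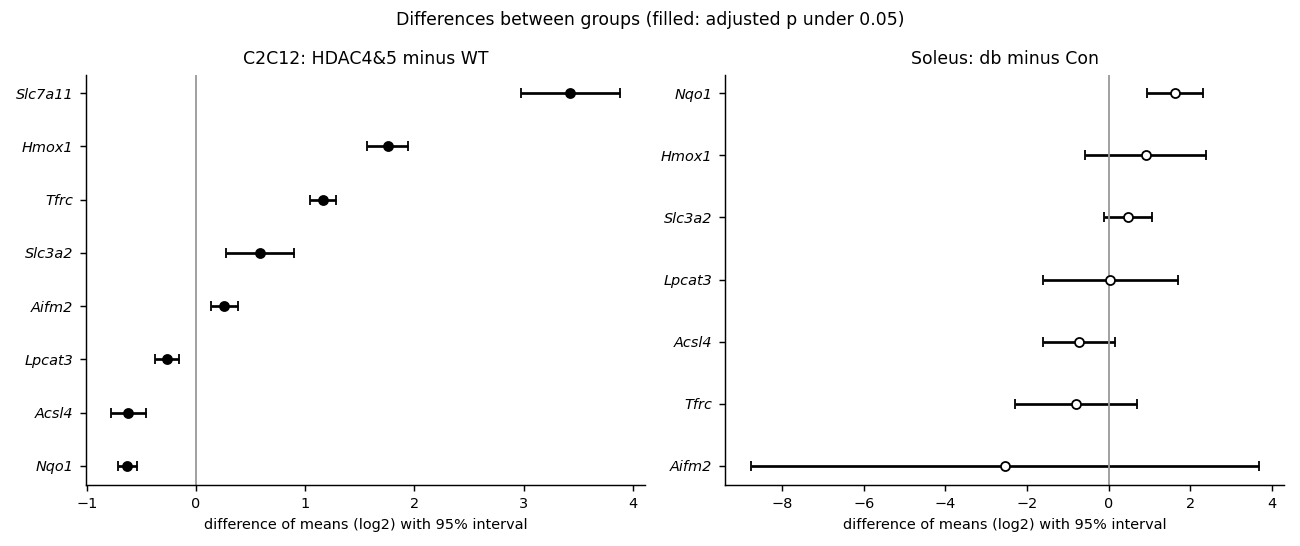
Difference of group means (log2, with its 95% interval from limma) for the genes tested in C2C12 cells (left, HDAC4&5 minus WT) and in soleus (right, db minus Con), with separate axes and with the saturated Fth1 left out; the Slc7a11 difference is taken against background signal in WT. Filled circles passed the adjusted p: all 8 in cells, none in soleus, where the Nqo1 interval alone, 0.93 to 2.31, lies away from 0.

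In soleus muscle, none of the 8 genes tested differed between db and Con mice at the adjusted p (limma), and 0.00765% of the 13071 genes tested did. At an unadjusted p below 0.05 there was 1 of the 8, Nqo1, against 6.35% of all genes. Nqo1 read 1.83, 2.09 and 1.88 in Con and 3.42, 3.76 and 3.48 in db muscle, 3.08-fold higher in db, with a difference of 1.62 ± 0.29 (adjusted p = 0.285, limma). The spot of db array 3 had been marked as an outlier and would have read 3.38, also above every Con array. Within the slides the difference was 1.63 and 1.60, and with slide as a block the adjusted p was 0.0555. The 3 against 3 arrays left allow an exact permutation p of no less than 0.1, which Nqo1 reached. The mean level of 8 adipocyte markers was 2.24 to 2.90 on Con and 2.91 to 3.27 on db arrays, of which Lep, the leptin gene, differed by 3.62 and Cfd by -1.91, with none called. Without Lep the means overlapped, at 3.04 to 3.84 on Con and 3.37 to 3.82 on db arrays. The part of fat in the Nqo1 level was not tested, and in whole muscle fewer cells of a type and less RNA per cell cannot be told apart.

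Slc3a2 read 1.61, 1.65 and 1.73 in Con and 2.34, 2.22, 1.99 and 2.03 in db muscle, so that every db array lay above every Con array (two-sided p = 0.0286 by exact permutation, and 3 against 4 arrays allow no less). Of all genes measured on the 7 soleus arrays, 9.33% did not overlap between groups. The difference was 0.48 (95% interval -0.11 to 1.07, adjusted p = 0.874, limma), and within the slides it was 0.65 and 0.28. Its second probe read -3.91, -4.31 and -4.67 in Con and -2.69, -2.91, -4.83 and -4.19 in db muscle. These groups overlapped (two-sided p = 0.371 by exact permutation). That probe was well above background on no Con array and on 3 of 4 db arrays, but the background limit differed between arrays. The dimmest probe well above background lay at -3.30 on Con array 1 and at -4.53 on db array 4.

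Acsl4 read 2.63, 3.32 and 2.76 in Con and 2.29, 1.70 and 2.53 in the 3 db arrays that kept the spot, a difference of -0.73 (interval -1.61 to 0.14, adjusted p = 0.858, limma). The spot left out would have read 2.90, within the Con values. The second Acsl4 probe gave -0.23 (SE 0.32). Tfrc read 2.74, 3.60 and 1.91 in Con and 3.44, 2.09, 1.19 and 1.06 in db muscle, a difference of -0.81 (interval -2.31 to 0.69, adjusted p = 0.948, limma). Its 3 arrays of slide 2 were lower than the slide 1 arrays of the same group, and within slides the difference was -0.41 and -0.79. The mean level of the 6 erythroid markers on the array was -1.58 to -0.20 on Con and -3.04 to -1.72 on db arrays, with Epb42 above background on no array. Its part in the Tfrc level, a receptor rich on red cell precursors, was not tested.

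Hmox1 read 1.57, -1.36 and 0.51 in Con and 1.66, 1.17, 0.69 and 1.05 in db muscle. Con array 2 lay below all others, and the difference of 0.91 (interval -0.58 to 2.39, adjusted p = 0.946, limma) was 0.11 without that array. Lpcat3 read 0.95, 0.33 and 1.45 in Con and -1.05, 1.15, 1.73 and 1.97 in db muscle, with overlapping groups. Aifm2 read 4.72, 5.17 and 6.61 in Con and -5.49, 4.49, 6.32 and 6.51 in db muscle. Its spot on db array 1 was not well above background at an intensity of 4.00 units, while the second Aifm2 probe read 1.28 on the same array, the highest of the 4 db arrays, and 2 db arrays were saturated with the first probe. Slc7a11 was not well above background with any of its 4 probes on any of the 7 soleus arrays, nor was Alox15, so neither was tested in muscle.

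**Figure D4:**
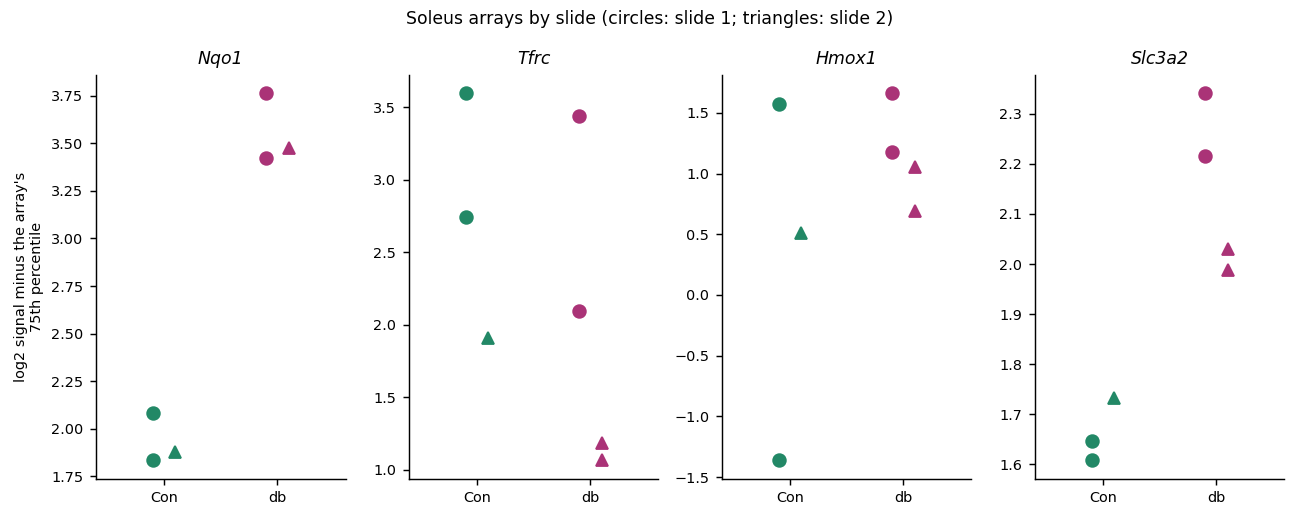
Level of Nqo1, Tfrc, Hmox1 and Slc3a2 on the soleus arrays (log2 signal minus the 75th percentile of the array), with circles for slide 1 and triangles for slide 2. Nqo1 is 1.83 to 2.09 in Con and 3.42 to 3.76 in db muscle on both slides, whereas Tfrc is lower on slide 2 in both groups.

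Nqo1 was lower in HDAC4&5 than in WT cells (-0.63) and read higher in db than in Con muscle (1.62), where it was not called (adjusted p = 0.285, limma). The difference between both contrasts, HDAC4&5 minus WT less db minus Con, was -2.25 ± 0.15 (adjusted p = 2.74e-09, limma over all 19 arrays). That fit gives the 4 groups 1 spread. When each comparison kept its own spread, a fit added with these results in view, the adjusted p was 0.0018. Tfrc also differed, by 1.97 ± 0.53 (adjusted p = 0.0075), but its db arrays ran from 1.06 to 3.44 and its WT arrays only from -0.05 to 0.22, and with own spreads the adjusted p was 0.0911. These 2 were the called ones of 8 genes tested, beside 30.2% of 11671 genes. For Slc3a2 the changes were 0.58 in cells and 0.48 in muscle, and their difference was 0.10 ± 0.22 (adjusted p = 0.78).

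Control muscle and control cells were set side by side to give the level of each gene, although tissue and slide cannot be told apart here and the arrays are those of the comparisons above. Slc3a2 was 6.24-fold, Hmox1 3.85-fold, Lpcat3 1.81-fold, Acsl4 1.67-fold (its second probe 7.78-fold) and Nqo1 1.34-fold higher in WT cells than in Con soleus, and Tfrc was 6.43-fold higher in soleus (adjusted p between 5.85e-07 and 0.0071, limma). The Hmox1 difference of -1.95 (soleus minus cells, log2) was -1.14 without Con array 2 and -2.61 without Con array 1. All 8 genes tested were called, beside 75.2% of 15072 genes, though the call of Fth1 compares saturated spots and that of Aifm2 (1.84-fold higher in soleus, adjusted p = 0.0362) was lost with normexp (adjusted p = 0.179) and its difference of 0.88 was 0.33 without Con array 3. In order, Slc3a2 was highest in HDAC4&5, then WT, db and Con, and db and Con did not differ at the adjusted p. Hmox1 ran HDAC4&5, WT, db and Con, and its db and Con levels did not differ beyond their spread. Tfrc ran Con, db, HDAC4&5 and WT, with Con and db, and db and HDAC4&5, overlapping. Nqo1 ran db, WT, Con and HDAC4&5, with Con (1.93 ± 0.13, SD, n = 3) and HDAC4&5 (1.73 ± 0.04, n = 6) closest.

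The wider pathway was read in lists, each described by its counts in HDAC4&5 against WT cells beside the 69.2% called and the median of 0.05 over all genes. Of 17 glutathione genes tested, 9 rose and 4 fell (76.5%, median 0.26). Mgst1, a microsomal glutathione transferase, rose by 3.69 ± 0.09 and Cth, which makes cysteine from cystathionine, by 2.02 ± 0.07. Mgst3, another microsomal transferase, and Ggct, which cleaves gamma-glutamyl dipeptides, fell by 1.17 and 0.90 on the log2 scale. Gpx4, named outside the rule for list genes because it is the central enzyme, read 5.93 ± 0.53 in WT and 5.81 ± 0.20 in HDAC4&5 cells (adjusted p = 0.61, limma), with 5 of 6 WT arrays saturated. Of the 5 other light chains that pair with SLC3A2, 3 were tested: Slc7a5 rose by 0.68 ± 0.06, Slc7a6 by 0.15 ± 0.05, and Slc7a7 fell by 3.69 on the log2 scale.

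Of 19 coenzyme Q and other suppressor genes, 5 rose and 7 fell (63.2%, median -0.08). Sod2 and Prdx6, which remove superoxide and peroxides, rose by 0.66 ± 0.06 and 0.54 ± 0.06, whereas Gch1, which starts tetrahydrobiopterin synthesis, and Coq8a fell by 1.66 and 2.19 on the log2 scale, Coq8a to a level well above background on 4 of 6 HDAC4&5 arrays. Of 24 lipid genes, 7 rose and 10 fell (70.8%, median -0.10). Lpcat2 rose by 4.22 ± 0.15 from a level measurable on 5 of 6 WT arrays, and Aloxe3 was at least 3.12-fold higher. Alox5ap, the partner of 5-lipoxygenase, fell by 3.10 on the log2 scale. Alox5 itself was saturated on 5 of 6 WT arrays at 5.99 ± 0.55 and read -5.03 ± 2.02 in HDAC4&5 cells, with 3 of 6 arrays well above background.

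Of 19 iron genes, 9 rose and 4 fell (68.4%, median 0.28). Hfe, which binds the transferrin receptor, rose by 2.74 ± 0.06 and Steap2, a metalloreductase, by 1.47 ± 0.09. The ferroxidase Cp fell by 2.98 on the log2 scale, and Hjv, a BMP coreceptor of muscle and liver, was at least 20.1-fold lower. Of 15 haem genes, 9 rose and 3 fell (80%, median 0.34). Hpx, the haem-binding hemopexin, rose by 1.98 ± 0.12 from a level well above background on 4 of 6 WT arrays. The haem exporter Flvcr1 rose by 1.54 ± 0.17, and the transporters Abcb6 and Abcb10 fell by 0.83 and 0.31 on the log2 scale.

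**Figure D5:**
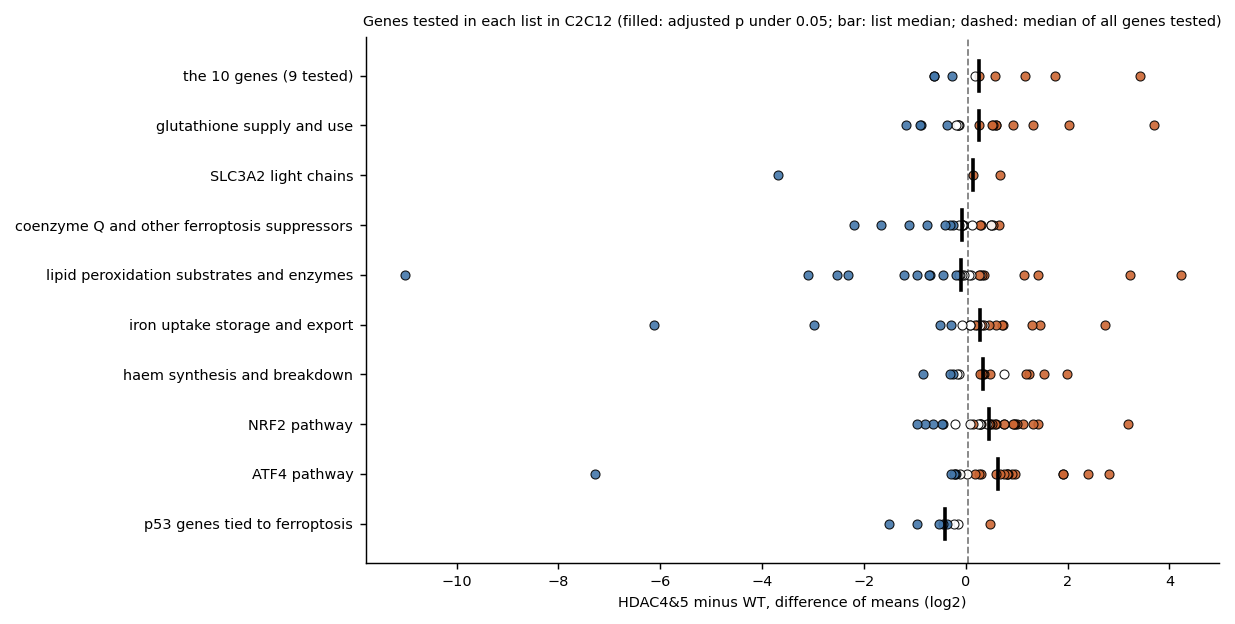
Difference between HDAC4&5 and WT cells (log2) of every gene tested in the 10 genes and in 9 pathway lists, 1 circle per gene, filled where the adjusted p was below 0.05 (orange higher, blue lower), with a bar at the median of the list and a dashed line at 0.05, the median of all genes tested. The ATF4 list has the highest median, 0.63, and the p53 list the lowest, -0.41.

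The lists of 2 transcription factors known to act on several of the 10 genes had the highest medians. Both lists share genes with the lists above and were chosen with earlier results of these data known. Whether either factor acted on the 10 genes in these cells was not tested. Of 29 NRF2 pathway genes, 17 rose and 5 fell (75.9%, median 0.45). Gsta4 rose by 3.19 ± 0.07 and Aldh3a1 by 1.42 ± 0.06, while Nfe2l2, which encodes NRF2, and the repressor gene Bach1 fell by 0.80 and 0.96 on the log2 scale, as did the NRF2 target Nqo1 above. Of 22 ATF4 pathway genes, 15 rose and 5 fell (90.9%, median 0.63). Slc7a3, a cationic amino acid transporter, rose by 2.82 ± 0.11 from a level well above background on 5 of 6 WT arrays. Ddit3, which encodes CHOP, rose by 2.39 ± 0.06. Aldh1l2, a mitochondrial folate enzyme, fell by 0.29 on the log2 scale and Stc2, a secreted glycoprotein, was at least 44.6-fold lower. Of 21 ATF4 list genes with a promoter window, 6 held TGATGNAA, beside 1219 of the 27025 genes with a window. Of these 6 list genes, Asns, Chac1, Atf3 and Trib3 rose in HDAC4&5 cells, and Vldlr and Nupr1 were not tested in cells. Rises were common, at 15 of the 22 list genes tested and 36.4% of all genes. TGACNNNGC stood in 12 of 25 NRF2 list genes, in 9 of 21 ATF4 list genes and in 3781 of the 27025 genes with a window. Of 8 p53 genes tied to ferroptosis, 1 rose and 5 fell (75%, median -0.41): Mdm2 rose by 0.48 ± 0.07, and Cdkn1a, the p21 gene, and Sat1, the polyamine acetyltransferase, fell by 1.51 and 0.95 on the log2 scale. In soleus none of the genes of these 9 lists passed the adjusted p (limma), and at most 3 of a list had an unadjusted p below 0.05.

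Over the 12 C2C12 arrays, the genes most like Slc7a11 in level were Btc, which encodes betacellulin, and a transcript named only by its Ensembl identifier, ENSMUST00000131347 (Pearson r = 0.992 and 0.993). Those most like Hmox1 were 1190005I06Rik and Selp (r = 0.998 each), and those most like Tfrc were Lhfpl2 and Zmiz1 (r = 0.996 each). All 12875 genes compared were measured on the same 12 arrays, and these correlations mainly carry the step between both groups.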

How the data were processed

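RNA was measured on 19 1-colour arrays, 1 per sample. The methods give 3 biological replicates per group, whereas the labels list 6, 6, 3 and 4 samples. The authors read them with Agilent Feature Extraction 9.5.1.1 and deposited a processed intensity per spot, corrected for background but with no scaling across arrays. A series matrix was deposited too, a ratio to a constant of each array. Of its 19 columns, 15 equalled a scanner file times a constant (tolerance 0.01, log2), 2 of them that of another db mouse, so it served by group as an alternative. Its scaling for the other 4 is unknown.

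Outlier and control spots were dropped, saturated spots kept, and the spots of a probe averaged. A level is log2 intensity minus the 75th percentile of its array. RefSeq accessions updated the names of 27198 of 41174 probes. Each gene was read from its brightest probe and tested where that probe was well above background on every measured array of at least 1 group. Against a group below background a fold is given as at least a value, set from the dimmest probe well above background in each array. Where the gene's own reading was higher, that reading was used. The limit is lenient, as a probe not well above background can read above it. Each comparison was fitted with limma 3.58.1 (R 4.3.3), without a block, with Benjamini-Hochberg adjustment over all genes (0.05). Tested on simulated data with 200 genes changed by 2 (log2), the C2C12 fit (14135 genes) recovered 98.5% of them with 3.90% false calls, the soleus fit (13071 genes) 59% with 4.84%. The simulated noise was independent between arrays, so these rates leave out the slide effects of the data. Single values were compared by exact permutation. The number of arrays limits the precision.

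The 10 genes and all lists were chosen with earlier results of these data known. Named are the 10 genes, up to 2 largest rises and falls per list in C2C12, and the 2 genes most correlated with each of the 3 most changed. Gpx4, Asns and the ATF4 list genes that hold TGATGNAA were named besides. Deviations of same-numbered arrays correlated by 0.19 to 0.55 in C2C12 and 0.43 to 0.69 in soleus, and those of other arrays on 1 slide by 0.19 to 0.53 and 0.33 to 0.74, so that number and slide go together. Alternatives changed the normalisation, background, filter, probe rule, block, spread, test or source table, or left out arrays.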

Additional observations from a re-analysis of the deposited data

Results flagged for a closer look

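Nqo1 fell in the cells and read higher in db muscle, with a difference between both contrasts of -2.25 (log2), and Tfrc rose in the cells and read lower in db muscle, with a difference of 1.97. Neither gene was called in muscle. Both came from the test of the difference itself, and that of Tfrc was lost when each comparison kept its own spread.

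Aifm2 on db array 1 stood apart at -5.49, the other db arrays being at 4.49 to 6.51, and Alox15 on WT array 3 stood apart at -5.88, the other WT arrays being at -8.20 to -7.39. Neither spot was well above background. Chance alone would set about 1.35 of the 27 groups of arrays apart, and 2 were.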

How the results depend on the processing

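In C2C12 cells 6 to 8 of the 10 genes were called under every alternative, against 8; normexp and the deposited matrix each called 3 as higher and 3 as lower, and in the matrix Slc7a11 and Fth1 were not tested. Slc7a11 was 1.46 with normexp, against 3.43. Leaving out each replicate number gave 8 to 8. In soleus the count of 0 became 2 with the spread shared by all 4 groups (Acsl4, Nqo1), 1 at the unadjusted p (Nqo1) and 2 by the methods' t-test without adjustment (Slc3a2, Nqo1), and stayed 0 by that test with it; leaving out 1 array gave 0 to 0. The difference of both changes went from 2 genes to 1 with own spreads. With the replicate block the counts were 8 in C2C12 and 0 in soleus, so the pairing changed no call. Over all genes slide as a block called 39 in soleus instead of 1, and a spread shared by all groups 887, and 5732 instead of 9784 in C2C12. The median of all genes moved from 0.05 to -0.12 in C2C12 and from -0.02 to 0.22 in soleus with the matrix, and for Con against WT from 0.00 to -0.26 with quantile and 0.25 with normexp scaling.

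Single calls lost were Slc3a2 with normexp (0.40) and with the mean of its probes (0.58), of which the brighter is missing on slide 3, and with arrays averaged by slide (0.58), Aifm2 as given above, Aifm2 and Lpcat3 with the spread of all groups, and for Con against WT Fth1 with quantile scaling (0.01). Signs turned only for values that were never called. The saturated Fth1 read -0.028 in C2C12, 0.057 in soleus and -0.085 in the difference with quantile scaling. Lpcat3 in soleus read -0.056 with quantile scaling, -0.19 with slide as a block, -0.30 with the replicate block, and -0.25, -0.027, -0.22 and -0.30 without Con replicate 2 and db replicates 2, 3 and 4, in a range of -0.30 to 0.71 over all arrays left out. Aifm2 in soleus read 0.27 without db replicate 1, in a range of -3.73 to 0.27. The difference of both changes read -0.045 for Slc3a2 and -0.17 for Acsl4 with normexp. The causes were not tested.

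Dim spots limit Slc7a11 and Alox15, which were bounded or not tested, and saturation limits Fth1. Arrays in muscle are few and spread widely.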
